A study of Drosophila melanogaster with 9 samples.

Results

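Transposable elements were followed in a serially transplanted *Drosophila* brain tumour through 341 annotated insertions, each a single copy of an element at a known place in the genome. They were chosen by their base mean, the average of the normalized counts of all libraries in a comparison: rows with a FlyBase insertion identifier and no gene symbol were kept where it was at least 10 in first allografts against the primary tumour. The comparison listed 12668 features, of which 1172 had an insertion identifier, and 341 of these reached the limit. All 341 were annotated as transposable elements, and they belonged to 79 element families.

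The tumour was made by *NΔecd*, a constitutively active Notch, expressed with nuclear GFP in random clones of the larval CNS. Larvae carried *hs-FLP*, *UAS-NΔecd*, *UAS-nlsGFP* and an *act-FRT>STOP>FRT-Gal4* cassette. Heat shock removed the stop cassette in random cells of any type, in which the actin promoter then drove Gal4, and all 3 stages share these transgenes. The 3 stages, with 3 libraries each, were compared: GFP-positive cells sorted 4 days after clone induction (FACS), whole masses of the first allograft in the abdomen of *w1118* adult females, taken after 8 to 10 days (T0), and whole masses of the fourth allograft, taken after 6 to 8 days (T3). A FACS replicate pooled 150 larvae and an allograft replicate pooled 25 hosts. The sorted cells had no host tissue, whereas the allograft masses were not sorted, so that stage, sorting and host tissue cannot be told apart in either comparison with FACS. In these bulk samples, fewer cells of a type and less RNA per cell cannot be told apart.

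Transposable elements are DNA sequences that can move to new places in the genome. LTR retrotransposons such as *copia*, *roo* and *gypsy* are copied through an RNA flanked by long terminal repeats, non-LTR retrotransposons such as *Doc*, *F* and the telomeric *HeT-A* through an RNA without such repeats, and DNA transposons such as *Tc1* and *1360* move as DNA, while *INE-1* is an old, short and mostly immobile element of which the fly genome holds very many copies. In flies, small RNAs keep these elements silent. Piwi-interacting RNAs act mainly in the gonad and small interfering RNAs in somatic tissue. RNA over an insertion can start at the element itself or at the gene in which it lies.

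Copies of a family are often near identical in sequence, and how reads that match several copies were assigned is not given in the sources used here, so that values of single copies are uncertain and families carry the description. Whether strand was used in counting is not given either, so an insertion and the gene around it cannot be told apart by strand. The annotated places are those of the reference strain, and whether the flies used here carry each insertion is not known. The tables hold no values per library. Group means, in normalized counts, were therefore solved from base mean and log2 fold change, and each ± is the standard error (SE) of the authors' model over 3 libraries a group. Each library was made from an RNA preparation of its own pool of animals. Depth per library is unknown.

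The limit on the base mean shaped the members. A group mean of at least 10 in both FACS and T0 was found for 222 insertions. Another 89 passed through T0 and 30 through FACS, and those could pass only by being higher there. At the limit itself, *INE-1{}5642* was just inside with a base mean of 10.0 and a log2 fold change of 0.68 in T0 against FACS, followed by *transib3{}2949* (0.94) and *mariner2{}1523* (-1.51). Just outside were *HeT-A{}6281* with a base mean of 9.98 and a log2 fold change of -3.38, *INE-1{}3083* (-1.61) and *INE-1{}4314* (0.03). The median base mean was 26.9 and the highest was 1684.

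The insertions were unevenly spread over the genome. Chromosome 4, the small and largely heterochromatic autosome, held 88 of them, which was 15.5% of its 566 annotated insertions, against 3.40% of 912 on X. Of all 5896 annotated insertions, 9.60% lay on chromosome 4, and of the 341 this was 25.8%. Inside an annotated gene lay 213 (62.5%, against 49.1% of all annotated insertions), of which 114 were on the strand of the gene and 99 on the opposite strand. An exon was overlapped by 21. Their median length was 804 bp, against 374 bp for all annotated insertions. Many were neighbours, since 126 of the 341 stood in 47 stretches in which the next insertion lay within 1000 bp. Neighbours can share reads or a transcript, so they are not independent of each other.

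The base mean of T0 against FACS chose the members, so that comparison is given as a description. A feature was called at a log2 fold change of at least 0.5 in size and an adjusted p of at most 0.05. In T0, 119 of the 341 insertions were called higher and 18 lower than in FACS, beside 18.3% higher and 19.6% lower among all features whose base mean was 10 or more. Their median log2 fold change was 0.98, and 0.02 over all those features. Summed over the 341 insertions, the group mean was 13917 normalized counts in FACS and 34405 in T0. In the table of T3 against FACS the sums were 14174 in FACS and 35050 in T3. These amounted to 0.0690% of all normalized counts in FACS, 0.162% at T0 and 0.178% at T3.

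T3 libraries took no part in choosing the members, although the FACS libraries did. In T3 against FACS, 116 insertions (34.0%) were called higher, beside 21.0% of all features, and 23 (6.74%) were called lower, beside 22.7%. The median log2 fold change was 0.65, and it was -0.0003 over all features. The higher calls came from 44 families and the lower calls from 14, and 7 of these families had both. Among the 222 insertions with a mean of at least 10 in both FACS and T0, 63 (28.4%) were called higher and 9 lower. The insertions were measured less precisely than other features, with a median SE of 0.60 against 0.18.

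LTR retrotransposons accounted for most of the higher calls. Of 105 LTR insertions, 68 (64.8%) were called higher in T3 than in FACS and 5 lower, with a median log2 fold change of 2.29. Without *copia*, 42 of 79 (53.2%) were called higher, with a median of 1.53. Of 62 non-LTR insertions, 21 (33.9%) were higher and 5 lower, with a median of 0.67. DNA transposons had 12 of 68 higher and 5 lower, with a median of 0.24, and *INE-1* had 15 of 105 higher (14.3%) and 8 lower, with a median of 0.27. Of all features, 21.0% were called higher and 22.7% lower. DNA transposons and *INE-1* lay under that share of higher calls, and every class lay under that share of lower calls. The counts include 89 insertions that reached the limit on the base mean only through T0, 53 of them higher and 0 lower. Only through FACS passed 30, 14 of them lower and 0 higher. For both sets the direction was largely set by how they were chosen, and their numbers per class were not counted. The LTR share of the summed group mean of all 341 insertions was 37.2% in FACS, 58.9% at T0 and 61.7% at T3. The classes also differed in length, with a median of 5145 bp for LTR insertions and 326 bp for *INE-1*.

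**Figure D1:**
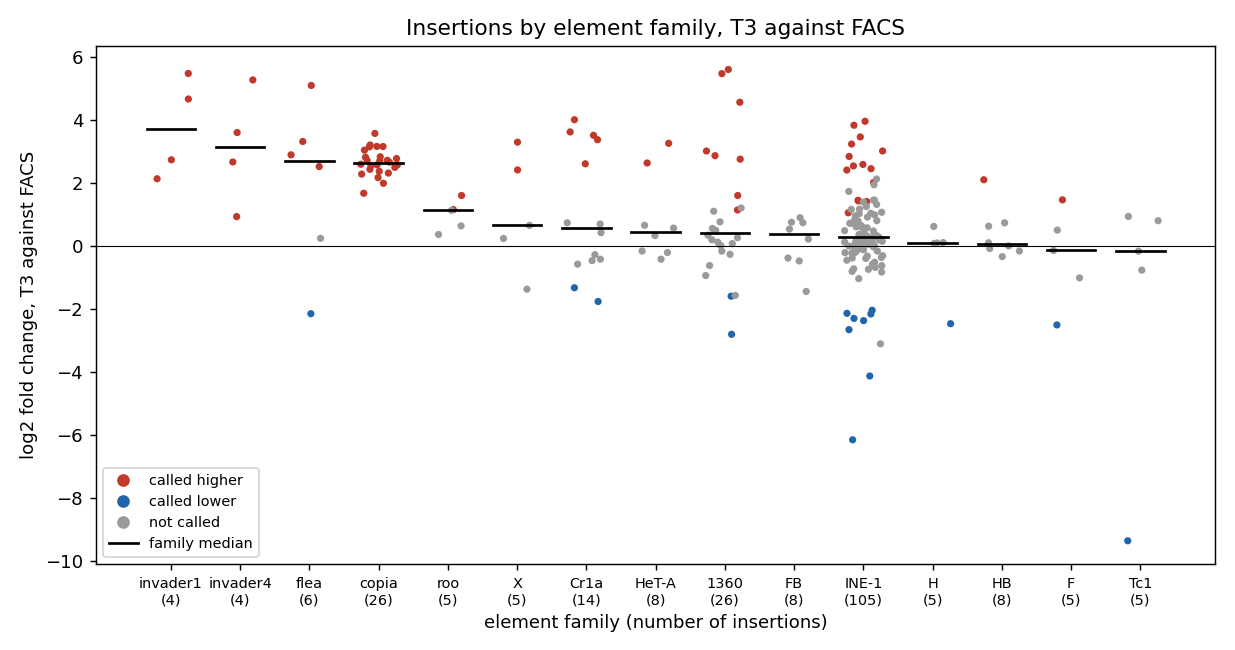
Log2 fold change in T3 against FACS (vertical axis) of every insertion of the 13 families with at least 5 members and of *invader1* and *invader4*, each point an insertion, red where called higher, blue where called lower and grey where not called, with the family median as a bar. All 26 *copia* insertions lie between 1.67 and 3.57, whereas the 105 *INE-1* insertions spread from -6.16 to 3.95 around a median of 0.27.

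*copia*, an LTR retrotransposon, was the family with the largest summed group mean in T0 and T3. Its 26 members were 4424 to 6856 bp long, with a median of 5146 bp. All 26 *copia* insertions were called higher in T3 than in FACS, with log2 fold changes from 1.67 to 3.57 and a median of 2.62. Of the 26, 18 had a mean of at least 10 in both FACS and T0. The other 8 reached the limit on the base mean only through T0, so their direction was largely set by how they were chosen. In the comparison that chose the members, T0 against FACS, the 26 ran from 1.92 to 3.93 with a median of 2.80. Their summed group mean was 2310 normalized counts in FACS and 13329 in T0, and 2361 in FACS and 13294 in T3 in the other table, which is 5.77 times and 5.63 times the FACS level. *copia* made up 16.6% of the signal of the 341 insertions in FACS, 38.7% at T0 and 37.9% at T3. Without the limit on the base mean, 32 of the 39 annotated *copia* insertions were listed in T3 against FACS, and all 32 were called higher.

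The rise was of like size inside and outside genes. The 15 *copia* insertions in introns had a median log2 fold change of 2.66 and the 11 outside genes 2.58. Within genes, the 7 on the strand of the gene had a median of 2.59 and the 8 on the opposite strand 2.68. *copia* has no member on chromosome 4, and its members lie on 2L, 2R, 3L, 3R and X. How many of the copies gave rise to RNA was not tested.

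The most strongly counted insertion was *copia{}1467* (FBti0019469, BDGP6.54 3R:31413145-31418286, minus strand), in an intron of *Gprk2*, a kinase of G protein-coupled receptors, on the opposite strand. It had group means of 570 normalized counts in FACS, 2798 at T0 and 3412 at T3. Its log2 fold change in T3 against FACS was 2.55 ± 0.18 (SE, adjusted p = 1.57e-42), while *Gprk2* itself had -0.41 (adjusted p = 0.0207), under the size needed for a call. The insertion rose and its gene was not called.

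*copia{}988* (FBti0020099, 3L:12957842-12962265), outside genes and 2095 bp from *Or69a*, an odorant receptor, had 476 in FACS, 2117 at T0 and 2417 at T3, with 2.31 ± 0.19 in T3 against FACS (adjusted p = 2.44e-33). *copia{}920* (FBti0020031, 3L:3601354-3606606), in an intron of the cyclin-dependent kinase gene *Eip63E*, had 249, 1188 and 1234, with 2.28 ± 0.21 (adjusted p = 7.59e-26). *copia{}1391* (FBti0019405, 3R:20109593-20114740), 98 bp from *CG10887*, had 178, 1160 and 1190, with 2.71 ± 0.26 (adjusted p = 1.15e-23). In all of these FACS was the lowest group, and none was called in T3 against T0.

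*copia{}399* (FBti0019193, 2L:17819978-17825122) lay in an intron of *CadN2*, a neuronal cadherin, on the strand of the gene. It had group means of 78.2 in FACS, 708 at T0 and 712 at T3, with a log2 fold change of 3.15 ± 0.27 in T3 against FACS (adjusted p = 8.75e-30). In the same comparison *CadN2* fell by 6.34 on the log2 scale (adjusted p = 5.23e-16). At the other end of the family, *copia{}131*, in an intron of the adenylyl cyclase gene *rut*, had 6.44 in FACS, 41.2 at T0 and 39.0 at T3. The log2 fold change of *copia{}131*, which reached the limit on the base mean only through T0, was 2.59 ± 0.58 in T3 against FACS (adjusted p = 3.84e-05).

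**Figure D2:**
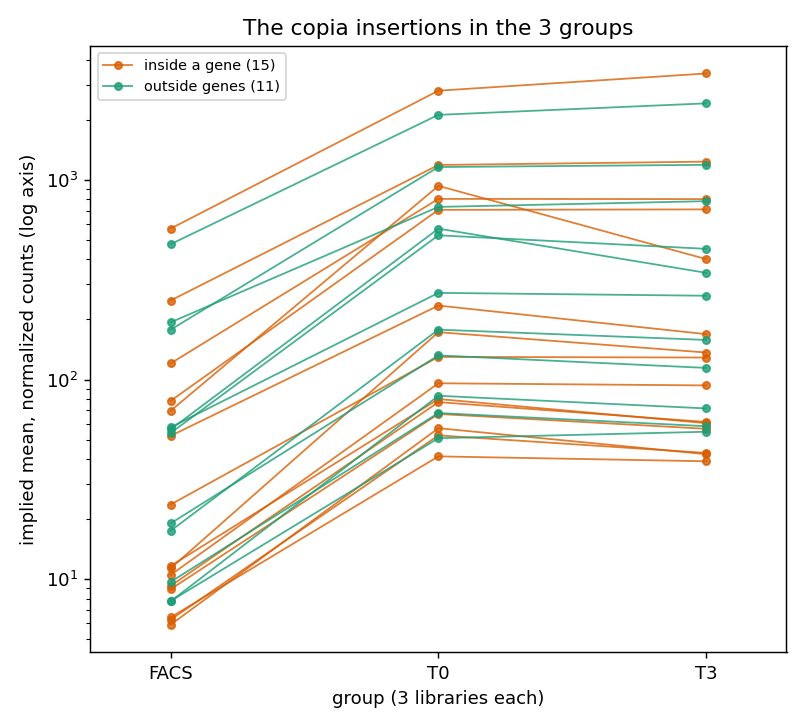
Group mean in normalized counts (logarithmic vertical axis) of each of the 26 *copia* insertions in FACS, T0 and T3, with 15 insertions inside a gene in orange and 11 outside genes in green, 3 libraries a group and no value per library. Every line climbs from FACS to T0, and the top line, *copia{}1467*, goes from 570 to 2798 and 3412.

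Other LTR families with the same direction were smaller. *invader1* and *invader4* had 4 members each, and all 8 were called higher in T3, with medians of 3.70 and 3.13. Some of the 8 reached the limit on the base mean only through T0, among them *invader1{}2034* and *invader4{}2888*, with FACS means under 3. The direction of such members was largely set by how they were chosen. With FACS means under 3 set to 3, the median of *invader1* was 2.52. *invader1{}4851* (FBti0062912, 2L:21656660-21657030), a fragment of 371 bp, had group means of 157 in FACS, 1026 at T0 and 1065 at T3, a log2 fold change of 2.73 ± 0.18 in T3 against FACS (adjusted p = 5.26e-52). Per kb of annotated length this was the densest of the 341 insertions in T3, with 2871 normalized counts per kb, against 664 for *copia{}1467*. Its neighbour *invader4{}511* (FBti0019234, 2L:21653247-21656493), which ends less than 1000 bp before it, had 74.6, 502 and 482, with 2.66 ± 0.22 (adjusted p = 5.84e-33). The 3 members of *gypsy12* and the 3 of *Doc*, a non-LTR element, were also all called higher.

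*flea* had 4 of 6 insertions higher in T3 and 1 lower, and *gypsy8* 3 of 4 higher, with a median of 2.33. *roo*, one of the most numerous LTR families of the fly, had 2 of 5 higher, with a median of 1.13. Its strongest insertion, *roo{}339* (FBti0019148, 2L:10946999-10956155), in an intron of the immunoglobulin-domain gene *dpr2* on the opposite strand, had group means of 715 in FACS, 1612 at T0 and 1623 at T3, with 1.15 ± 0.21 in T3 against FACS (adjusted p = 2.46e-07). *dpr2* fell by 4.82 on the log2 scale (adjusted p = 1.34e-12). *roo{}850*, which overlaps an exon of *grh*, a transcription factor of neural stem cells, had 293, 278 and 384 and was not called.

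Among the non-LTR families, *Cr1a* had 5 of 14 insertions higher and 2 lower, *X* 2 of 5 higher, and *F* 1 of 5 higher and 1 lower. *HeT-A*, which together with *TART* forms the ends of fly chromosomes, had 2 of 8 higher, with a median of 0.44. Both lay side by side near the end of chromosome 4, next to *TART-B{}1567*, which was higher too (2.87). *HeT-A{}4617* had 17.9 in FACS, 94.0 at T0 and 176 at T3 (3.26 ± 0.35 in T3 against FACS, adjusted p = 9.85e-20), and *HeT-A{}1685* had 14.1, 55.6 and 88.5 (2.63 ± 0.41). The other 6 *HeT-A* insertions lay between -0.42 and 0.65 and were not called.

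DNA transposons were mixed. *1360*, an element of the P family, had 8 of 26 higher and 2 lower, with a median of 0.41, *HB* 1 of 8 higher, *FB* 0 of 8 in either direction, and *H* and *Tc1* 0 of 5 higher and 1 of 5 lower each. *INE-1*, the family with the most members, had 82 of 105 not called, and its summed group mean was 2706 normalized counts in FACS and 4316 in T3. The highest log2 fold change of an *INE-1* was that of *INE-1{}4194* (3.95 ± 0.36) on 2L, beside the histone genes.

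The 23 insertions called lower in T3 were scattered over 14 families. Of the 30 insertions that reached the limit on the base mean only through FACS, 14 were called lower and 0 higher. The direction of such insertions, *Tc1{}172* among them, was largely set by how they were chosen. *Tc1{}172* (FBti0019090, X:19695320-19696943), 70 bp from *CG14229*, had group means of 245 in FACS, 6.05 at T0 and 0.38 at T3. Its log2 fold change was -9.37 ± 1.25 in T3 against FACS (adjusted p = 7.62e-13), and with the T3 mean set to the floor of 3 normalized counts a group it was at least 83.4-fold lower. The other 4 *Tc1* insertions lay between -0.77 and 0.93 and were not called.

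Next by p-value, *1360{}3897* (FBti0061958, 3L:23103649-23104623), 189 bp from *CkIIalpha*, a casein kinase subunit, had 123 in FACS, 51.7 at T0 and 41.4 at T3, with -1.60 ± 0.33 (adjusted p = 6.29e-06). *blood{}468* (FBti0019210, 2L:20303216-20310626), 593 bp from *spir*, an actin nucleator, had 93.8, 25.8 and 30.8, with -1.64 ± 0.34 (adjusted p = 7.50e-06). *Tc1-2{}6250* (FBti0064311, 3L:8397200-8397727), in an intron of *CG7120* on its strand, had 47.3, 13.7 and 8.58, with -2.50 ± 0.57 (adjusted p = 4.55e-05), and *CG7120* fell by 1.75 on the log2 scale. In each of them FACS was the highest group.

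*TART-A{}4601* (FBti0062662, 4:1272188-1272496), of a telomeric non-LTR family, had 52.5 in FACS, 3.65 at T0 and 8.52 at T3, with -2.65 ± 0.60 in T3 against FACS (adjusted p = 5.02e-05). The insertion reached the limit on the base mean only through FACS, so its direction was largely set by how it was chosen. It lies 429 bp from *Cadps*, a factor of dense-core vesicle release that fell by 1.81 (adjusted p = 2.67e-20). Within *Cadps*, *F{}1572* (-2.51 ± 0.68) and *INE-1{}3991* (-2.16 ± 0.79) were also called lower, both on the strand of the gene, whereas the other 3 insertions in it were not called, at 0.57, 0.19 and -0.81.

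A dense run of higher insertions stood on 2L. It was picked out after the values had been seen, so it is described without a test of its own. Between the last gene of the histone array and *Cul2*, a cullin of ubiquitin ligases, lay 24 insertions of 17 families (2L:21544904-21657030), of which 22 were called higher in T3 than in FACS and none lower. Their summed group mean was 534 normalized counts in FACS, 3452 at T0 and 4104 at T3. The other 42 insertions on 2L included 25 called higher and 2 lower, and outside *copia* 16 of 33 were higher.

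The run had a pair of blocks. In the 10 insertions next to the histone genes (2L:21544904-21573028), all called higher, log2 fold changes ran from 3.08 to 6.94, and the FACS mean was under 3 normalized counts in 7. With those means set to 3, the range was 2.36 to 5.66. Of the 10, 8 reached the limit on the base mean only through T0, as 89 of all 341 did, of which 53 were called higher in T3 and none lower, so their direction was largely set by how they were chosen. *gypsy12{}4868*, a fragment of 290 bp, had 1.21 in FACS, 98.6 at T0 and 152 at T3, the widest difference of the block. *Max{}4867*, the longest of them at 9870 bp, had 9.37, 114 and 178, with 4.21 ± 0.39. In the 11 insertions between *Df31* and *Cul2* (2L:21630825-21657030), also all called higher, the range was 2.29 to 3.51, and FACS means reached 157.

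The genes along the run were set beside it. *Lamp1*, a lysosomal membrane protein gene that holds 3 of the insertions, had 0.12 ± 0.12 (adjusted p = 0.464), and 1 of its 3 insertions was called higher. *Df31*, a chromatin protein gene, fell by 0.57 (adjusted p = 1.10e-09). *Ac3*, an adenylyl cyclase gene that holds 4 of the insertions, rose by 0.57 ± 0.24 (adjusted p = 0.0400), less than its insertions, which ran from 2.58 to 3.51. At the far end, the non-coding RNA gene *lncRNA:CR43144* rose by 2.27 ± 0.18 (adjusted p = 1.89e-35) and *Cul2* by 1.06 ± 0.12 (adjusted p = 6.36e-17). No insertion of the run was called in T3 against T0.

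**Figure D3:**
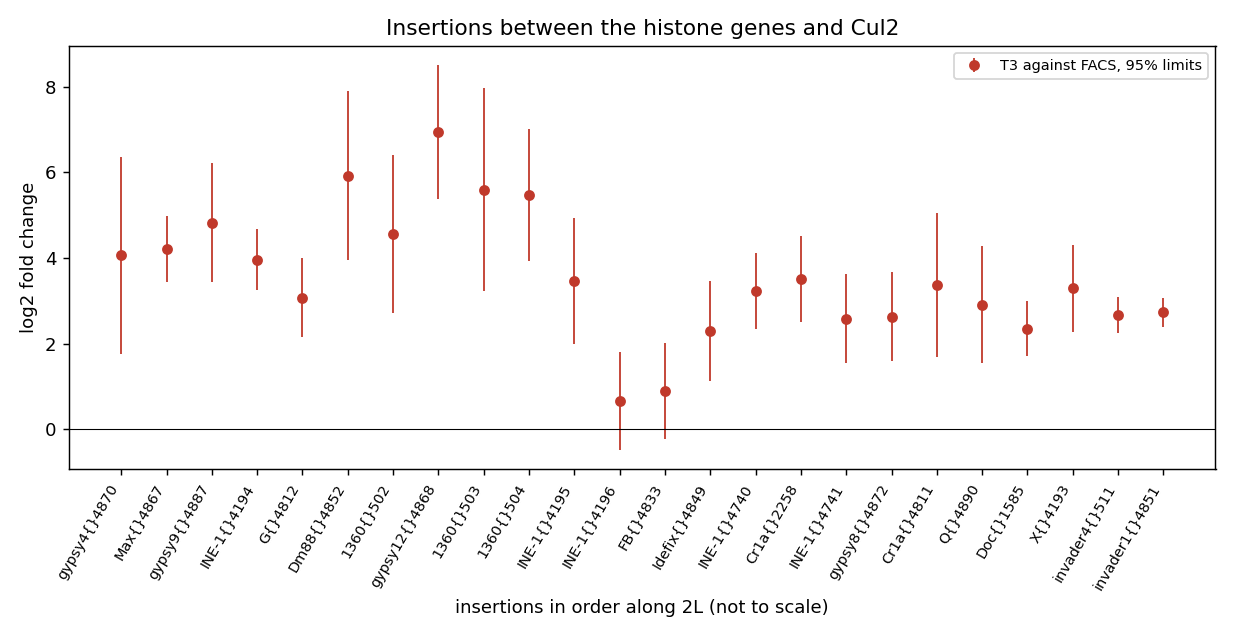
Log2 fold change in T3 against FACS (vertical axis) of the 24 insertions between the histone genes and *Cul2* on 2L, in their order along the arm and not to scale, as points with 95% limits from the authors' SE. The limits exclude 0 for all but *INE-1{}4196* and *FB{}4833*, both in *Lamp1*, and the first 10 points lie between 3.08 and 6.94.

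Chromosome 4 had the lowest share of higher calls of the 6 arms. Of its 88 insertions 9 (10.2%) were called higher and 8 (9.09%) lower in T3, with a median of 0.13, beside 21.0% and 22.7% of all features. On 2L, 47 of 66 (71.2%) were called higher, 22 of them in the run above. The counts by arm include insertions that reached the limit on the base mean only through T0, 8 of them in the block beside the histone genes. They also include insertions that reached it only through FACS. The direction of such insertions was largely set by how they were chosen. The arms differ in makeup, since 49 of the 88 were *INE-1* and only 2 of the 105 LTR insertions lay on chromosome 4. Of the 9 called higher on chromosome 4, 4 stood side by side at the end of *unc-13*, a gene of synaptic vesicle priming: *1360{}1539* (2.75), *INE-1{}2747* (3.01), *invader1{}1540* (4.66) and *invader4{}1541* (3.60). *unc-13* itself had 0.38 ± 0.15 (adjusted p = 0.0313), under the size needed for a call. None of the 7 insertions in *CaMKII*, a calcium-dependent kinase of synapses, and none of the 4 in *Hcf* was called in either direction.

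To see how far insertions followed the genes around them, each insertion was set beside its gene. For 203 insertions in 117 genes whose base mean was 10 or more, Pearson's r between the log2 fold changes in T3 against FACS was 0.33 and Spearman's rho 0.39. The points share libraries and, in part, genes and reads, so this is a description. In *INE-1* r was 0.66 and rho 0.47 (85 insertions in 53 genes), with *toy* and *nrm* as extreme points. In the 171 intronic insertions other than *copia* both were 0.50, and in the 13 *copia* insertions with a counted gene r was -0.13 and rho 0.04. In *copia*, the insertion had the higher log2 fold change in 13 of 13, and 6 of those genes were called lower and 2 higher.

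Calls were also counted by the strand of the insertion in its gene. Of 114 insertions on the strand of their gene, 23 (20.2%) were called higher and 10 lower, and of 99 on the opposite strand 36 (36.4%) were higher and 1 lower. Of all features, 21.0% were called higher and 22.7% lower in this comparison, so the share of higher calls on the strand of the gene was close to that of all features. Among the 10 lower insertions on the strand of the gene, the gene was itself called lower for 5 and higher for 1. Among the 36 higher insertions on the opposite strand, the gene was called higher for 17 and lower for 5. Outside genes, 57 of 128 (44.5%) were called higher and 12 lower.

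Some pairs lay in genes that fell strongly. *INE-1{}3345* (FBti0061406, 4:999517-1001425) lay in an intron of *toy*, a Pax6 factor of eye and brain development, on its strand, with group means of 13.9 in FACS, 10.2 at T0 and 0.19 at T3. Its log2 fold change was -6.16 ± 1.53 in T3 against FACS (adjusted p = 2.18e-04), and *toy* fell by 7.04. With the T3 mean set to the floor of 3, the insertion was at least 4.57-fold lower. *INE-1{}3227* in *nrm*, a cell adhesion gene of the nervous system, had 24.9, 0.73 and 1.44, with -4.13 ± 1.12, and *nrm* fell by 4.00. The T3 mean of that insertion lay under 3, and set to 3 it gave -3.08. It reached the limit on the base mean only through FACS, so its direction was largely set by how it was chosen. In the opposite direction stood *Marf1*, an RNA regulator of oocytes, which rose by 2.16 (adjusted p = 7.00e-21), with all 5 of its insertions called higher, from 2.41 to 3.62.

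**Figure D4:**
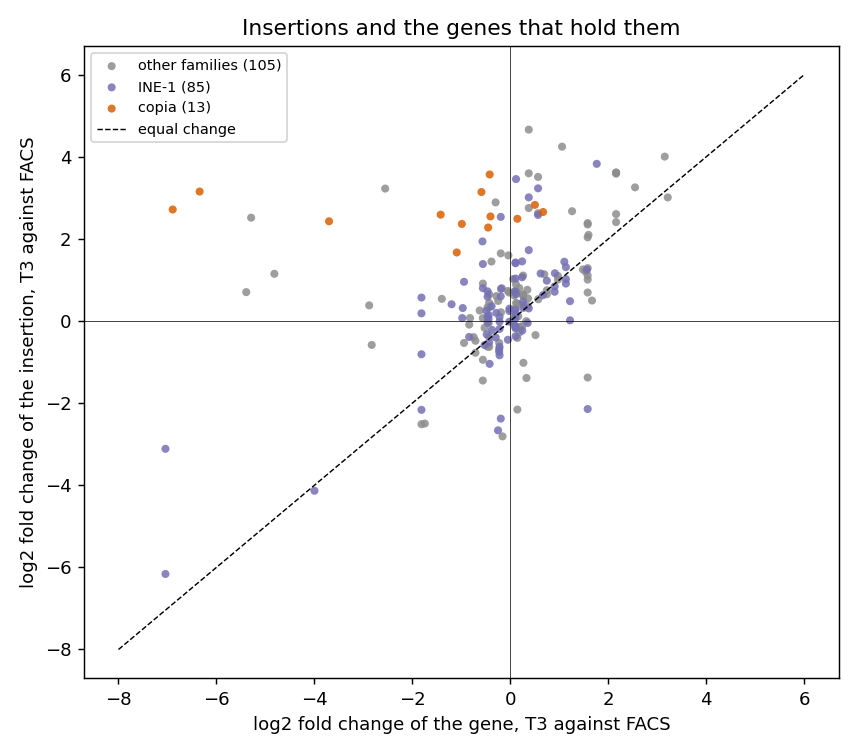
Log2 fold change in T3 against FACS of each insertion (vertical axis) against that of the gene that holds it (horizontal axis), for 13 *copia*, 85 *INE-1* and 105 other insertions, with a dashed line where both are equal. *copia* points stay between 1.67 and 3.57 on the vertical axis for genes on either side of 0, and the lowest *INE-1* point, in *toy*, lies at the lower left, where the gene is at -7.04.

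The passage from the first to the fourth allograft involves no sorted sample, and few insertions were called in it. In T3 against T0, 3 of 329 insertions with an adjusted p (0.91%) were called higher, beside 0.452% of all features, and none lower, beside 1.09%. At an unadjusted p under 0.05 there were 28 (8.24%), against 8.73% of all features, and the Wald test of a change above 0.5 called 0. The median log2 fold change was -0.10, with a median SE of 0.61. The summed group mean was 32022 normalized counts in T0 and 32250 in T3 in that table.

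The smallest p belonged to *ninja-Dsim-like{}589* (FBti0018952, 2R:4918632-4923588), an LTR element in an intron of *Ir41a*, an ionotropic receptor gene, on the opposite strand. It had 38.0 in FACS, 81.6 at T0 and 248 at T3, with 1.56 ± 0.30 in T3 against T0 (adjusted p = 1.02e-04) and 2.67 ± 0.26 in T3 against FACS (adjusted p = 4.80e-24). *Ir41a* had 0.51 in T3 against T0 (adjusted p = 0.999). The insertion was the only one of the 341 called higher in T3 than in T0 at an adjusted p of at most 0.01.

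*Cr1a{}1591* (FBti0059652, 2L:22357824-22359855), a non-LTR element in an intron of *Marf1* on the opposite strand, had 16.7 in FACS, 28.4 at T0 and 104 at T3, with 1.83 ± 0.47 in T3 against T0 (adjusted p = 0.0157). *Marf1* had 1.12 in the same comparison (adjusted p = 0.116). *3S18{}853* (FBti0018869, 2R:18575853-18581982), an LTR element in an intron of *GEFmeso*, a guanine nucleotide exchange factor gene, on the opposite strand, had 165, 109 and 247, so that T0 was the lowest group. Its log2 fold change was 1.13 ± 0.33 in T3 against T0 (adjusted p = 0.0424) and 0.54 ± 0.24 in T3 against FACS (adjusted p = 0.0502, not called).

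*copia* showed no call between the allografts. Its 26 insertions ran from -1.23 to 0.26 with a median of -0.18, and 6 were above 0. For *copia{}1467* the log2 fold change was 0.26 with 95% limits from -0.46 to 0.99. The *copia* insertions had a median SE of 0.73 for T0 against FACS, of 0.62 for T3 against T0 and of 0.36 for T3 against FACS. For the 191 other insertions whose base mean was 20 or more, the same medians were 0.55, 0.49 and 0.51. Lower values without an adjusted p were *INE-1{}3345* in *toy* (-5.74 ± 1.78, unadjusted p = 0.00123) and *Tc1{}172* (-4.19 ± 1.88, unadjusted p = 0.0256). The gene *toy* itself fell by 5.50 in T3 against T0 (adjusted p = 1.71e-27), and the other insertion in it had -4.43.

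**Figure D5:**
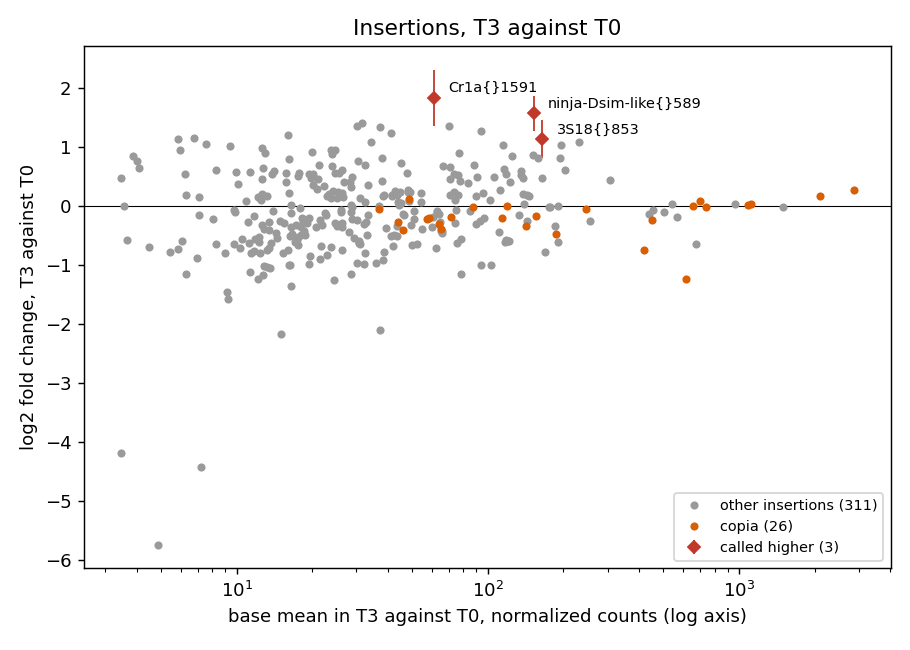
Log2 fold change in T3 against T0 (vertical axis) against the base mean of that comparison in normalized counts (logarithmic horizontal axis), for 26 *copia* insertions in orange, 311 others in grey and the 3 called higher as red diamonds with their SE. The *copia* points lie from -1.23 to 0.26, and the 3 called insertions lie at 1.13, 1.56 and 1.83.

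The genes that silence transposons were examined in a list of 32 for the piRNA pathway and 5 for the siRNA pathway. Of the 30 listed piRNA genes, 14 (46.7%) were called higher in T3 than in FACS and 4 (13.3%) lower, beside 21.0% and 22.7% of all features, with a median log2 fold change of 0.59. Higher were *spn-E*, a helicase of piRNA production (1.75 ± 0.12, adjusted p = 4.09e-45), *krimp*, a Tudor scaffold (1.41 ± 0.19), *AGO3*, which cuts transposon RNA guided by piRNAs (1.58 ± 0.44, adjusted p = 0.00107), and *Panx* (1.04 ± 0.15) and *arx* (1.05 ± 0.20), which act with Piwi in the nucleus. Lower were *tj*, a factor that drives piRNA genes in the somatic gonad (-5.42 ± 0.75), *SoYb* (-2.44 ± 0.43), *mael* (-2.27 ± 0.45) and the gene of the heterochromatin protein HP1a (-0.54 ± 0.11). *piwi* itself had 30.7 normalized counts in FACS and 63.3 in T3 and was not called (1.04 ± 0.54, adjusted p = 0.105).

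*AGO3* is also a host of transposons. It held 9 of the insertions, more than any other gene, and 3 of these were called higher in T3 than in FACS (*Stalker4{}2894*, *Stalker2{}2954* and *gypsy8{}2959*, from 2.04 to 2.39, all on the opposite strand) and 1 lower (*INE-1{}5808*, -2.14, on the strand of the gene). *AGO3* had 60.9 normalized counts in FACS and 182 in T3. Of the 5 siRNA genes, *AGO2*, the slicer of that pathway, was called higher, from 5450 in FACS to 9478 in T3 (0.80 ± 0.10, adjusted p = 8.47e-15), and none was lower. *Dcr-2*, which makes siRNAs, had 0.45 ± 0.12. No gene of either list was called in T3 against T0.

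Other cell types moved with the comparisons with FACS. Of 8 hemocyte markers 6 were called higher in T3, with a summed group mean of 358 normalized counts in FACS and 987 in T3. The marker *Pxn* gave most of that FACS sum and went the other way, with 284 in FACS and 96.6 in T3 (-1.56, not called). Of 7 adult fat body markers 4 were called higher. The fatty acid synthase gene *FASN1*, which many tissues express, gave most of the fat body sum, and the other 6 summed to 319 in FACS and 653 in T3, with *Apoltp* at -0.65 (not called). The same 6 fat body markers summed to 312 in FACS and 2525 in T0. The hemocyte markers summed to 350 and 1867, of which *Pxn* gave 278 and 185. All 6 neuron markers, among them *elav* and *brp*, were called lower, from 13094 to 629 in sum, and of 6 glia markers 4 were lower and 1 higher. Of 8 neural stem cell markers, none was called higher and 2 were lower, with *dpn* at -0.14 and *ase* at -4.04. Ovary markers, which would show ovary tissue of the host, had 8 of 12 listed in T3 against FACS, none higher and 1 lower. The lower gene was *bam*, which with *grk* made up most of the sum in FACS, at 271 and 90.6 normalized counts. The germline gene *osk* and the eggshell genes *Vm26Aa*, *Cp36* and *Cp38* were not listed in that table. In T0 against FACS 2 ovary markers were called higher and 3 lower. The higher ones were *nos*, with 5.82 in FACS and 49.0 in T0 (3.07, adjusted p = 0.00475), and *otu*, with 8.48 and 49.4 (2.54, adjusted p = 0.00525), and *osk* had 1.80 and 15.5 and was not called. In T3 against T0, 2 hemocyte and 3 adult fat body markers were called lower and none of any marker list higher. The part of these cells in the values of the insertions was not tested.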

How the data were processed

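The authors sequenced polyA libraries as single-end reads of 75 nt. Reads were mapped by the authors with STAR 2.7.5 (BDGP6.32 genome), assigned to features with featureCounts 2.0.1, and tested by the authors for each pair of stages in DESeq2 1.30.1. The 3 deposited tables list a base mean, which is a score made from counts that the authors scaled to library size. Beside it the authors deposited the log2 fold change with its SE, also in log2 units, and their Wald p-value, unadjusted and Benjamini-Hochberg adjusted. They hold the authors' own comparisons and no values per library, and these comparisons are described here because the insertions are defined on them. In part of the deposited tables each line was wrapped in extra quotes, which were removed.

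With Python 3.11.15, pandas 2.3.3, numpy 2.4.6, scipy 1.17.1 and matplotlib 3.10.9, group means were solved from base mean and fold change, 95% limits were set from the normal distribution, and a Wald test of a change above 0.5 was computed. FACS and T0 means come from the table of T0 against FACS and T3 means from that of T3 against FACS, unless stated. Means under 3 normalized counts were set to 3 for bounds. Family names, places and genes were matched by identifier for all 341 insertions in the Ensembl release 115 annotation BDGP6.54, which is a later annotation than that of the authors. Classes were assigned by family from general knowledge, and 1 insertion was left unassigned. Where several genes overlap an insertion, the gene with the highest base mean was used.

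The insertions, lists and rules were chosen with earlier results of these data known. Insertions named are the 5 with the highest base means and the 5 with the smallest p in each direction among those called in T3 against T0 and in T3 against FACS. Families named have at least 5 insertions or hold such an insertion. Any other insertion or family was named after its values were seen, as were *Doc*, *gypsy12*, *gypsy8* and the run on 2L. Alternatives were a stricter fold (1 on the log2 scale), a stricter adjusted p (0.01), the Wald test, adjustment over every p-value, centring on the median, other limits on the base mean, and insertions inside or outside genes. Leaving out *copia* and a mean of at least 10 in both FACS and T0 were added after seeing the data. The share of unique read-length words per insertion was planned and not computed. *armi* and *bootlegger* were not used here.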

Additional observations from a re-analysis of the deposited data

Results flagged for a closer look

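The allograft stages differed, by the test of T3 against T0, in *ninja-Dsim-like{}589* (log2 fold change 1.56), *Cr1a{}1591* (1.83) and *3S18{}853* (1.13). All 3 lie in introns on the strand opposite to the gene. The share of insertions called higher there was 0.91%, beside 0.452% of all features, and the Wald test of a change above 0.5 called 0.

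A further 70 rows of T3 against FACS name a transposable element without an insertion identifier and were in none of the comparisons above. Of these, 16 (22.9%) were called higher in T3 and 0 lower. Only 27 of the 70 had a base mean of 10 or more, whereas the 21.0% of all features called higher was taken above that limit. The shares therefore cannot be set side by side.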

How the results depend on the processing

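All 27 alternative medians moved by less than the median SE of single insertions, which does not measure the uncertainty of a median over many. Around 0.65, the alternatives in T3 against FACS ran from 0.51 to 1.08. Around 0.98, those in T0 against FACS ran from 0.69 to 1.23. The median in T3 against T0 was -0.10 and lay on either side of 0, at 0.13 outside genes, -0.23 inside genes and 0.04 with the limit set in T3 against FACS. Of 66 alternative counts 16 moved by over 1.5 times. The Wald test called 73 insertions higher and 8 lower in T0 against FACS, 13 lower in T3 against FACS and 0 higher in T3 against T0, where an adjusted p of at most 0.01 left 1. A base mean of at least 30 left 7 lower in T0 against FACS, and 74 higher and 7 lower in T3 against FACS, since fewer insertions were tested. With the limit set in T3 against T0, 6 and 7 were lower in T0 and T3 against FACS, and with no limit 29 and 37. With a mean of at least 10 in both FACS and T0, 69 were higher and 6 lower in T0 against FACS, and 63 higher and 9 lower in T3 against FACS. So counts of lower insertions depend on which groups set the limit. Counts of higher insertions, 119 and 116 in the main setting, also fell where both groups had to reach it, with 222 insertions left. No paired analysis was possible because the tables hold no values per library, and for the same reason no library could be left out. Depth per library, multiply matching reads and strand limit every value of a single copy.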
